A study of Mus musculus with 6 samples.

Results

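Genes of the cell division cycle were followed across 6 whole-transcript arrays of bronchial smooth muscle cells (BSMCs), 3 from control mice and 3 from mice with ovalbumin (OVA) induced asthma. The set is a list of 40 gene symbols: 11 genes of S phase, when DNA is copied, and 29 genes of G2 and mitosis, when chromosomes are condensed and separated. Probe sets were matched by symbol, and 38 of the 40 genes were found among the 20239 tested, 10 of S phase and 28 of mitosis. Pcna and Ccnb1 were not matched and are not analysed here.

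All mice were αSMA-hrGFP;NG2-DsRed animals of the C57BL/6J strain, as the labels give it, in which the rat α-smooth muscle actin promoter drives a green and the mouse NG2 (Cspg4) promoter a red fluorescent protein. Asthma mice were injected with 50 µg of OVA in alum on days 0 and 7, control mice were sensitized with PBS, both groups inhaled nebulized OVA on 5 days from day 14 to day 18, and cells were taken on day 19. According to the methods, BSMCs were sorted from digested lungs as green, non-red cells without CD45 (leukocytes) or CD31 (endothelium), and each RNA sample was a pool of several mice. The labels instead describe microdissected muscle of single animals and give the OVA injections for every sample, and no age is given beyond adult. Whether a higher level reflects more dividing cells in a pool or more RNA in each cell cannot be told apart in such samples, and p-values measure the spread between these pools only.

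The methods excluded 1 asthma array, without naming it, because it stood apart in a principal component analysis. Here asthma 2 stood apart, with a score of 67.5 on the first component against -23.5 to -9.29 for the other 5 arrays, and the main comparison set asthma 1 and asthma 3 against the 3 control arrays. Values on asthma 2 were also compressed: low-level genes lay higher and high-level genes lower than on the other arrays. Where asthma 2 lies against the controls for a gene therefore cannot be read apart from the level of that gene. Differences are log2 levels of asthma minus control. Levels are comparable between arrays for a given gene, not between genes. Acta2, the α-smooth muscle actin gene, had levels of 11.87 to 12.52, and Myh11, the smooth muscle myosin heavy chain gene, 10.52 to 11.86. Ptprc, which encodes CD45, had levels of 6.84, 8.10 and 7.77 on control 1, 2 and 3, of 8.09 and 8.31 on asthma 1 and 3, and of 6.18 on asthma 2. Pecam1, which encodes CD31, had 8.69, 9.44 and 8.59 on the controls, 8.48 and 8.60 on asthma 1 and 3, and 6.52 on asthma 2. Marker lists of other cell types are given after the cell cycle genes, most of them array by array.

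Smooth muscle cells of an adult airway divide rarely, and thickening of the muscle layer is a known feature of asthma. When a cell enters the cycle, E2F transcription factors switch on the genes of DNA replication, among them the MCM helicase that licenses origins and the enzymes that supply deoxynucleotides. Later, in G2, the MuvB complex with B-Myb and FOXM1 switches on the mitotic genes, through promoter elements called the cell cycle genes homology region (CHR) and, nearby, CCAAT boxes bound by NF-Y. In resting cells the DREAM complex holds both groups of genes off.

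Many promoters of the members hold these letters, and 6 are shown as examples. They were picked from the genes whose levels are described in detail, and all hold several matches. They belong to the proliferation marker Mki67, the topoisomerase gene Top2a, the condensin subunits Smc2 and Ncapg, and the helicase subunits Mcm6 and Mcm5. Each runs 5′ to 3′ in the direction of transcription, from 250 bases before to 50 bases after the annotated start (RefSeq, GRCm38.p6). Capitals mark matches on either strand to the CCAAT box, spelled CCAAT, to the core of the CHR, spelled TTTGAA, and to the binding sequence of E2F. For E2F the spelling TTCCCGC was searched, with TTGGCGC as a variant, TTGCCGC as a further variant and TTCGCGC as the last. Each was searched on both strands, so a box on the minus strand shows as its reverse complement. The coordinates are chr7:135716330-135716629 (minus strand) for Mki67, chr11:99024140-99024439 (minus) for Top2a, chr4:52438971-52439270 (plus) for Smc2, chr5:45669675-45669974 (plus) for Ncapg, chr1:128359656-128359955 (minus) for Mcm6 and chr8:75109259-75109558 (plus) for Mcm5.
Mki67: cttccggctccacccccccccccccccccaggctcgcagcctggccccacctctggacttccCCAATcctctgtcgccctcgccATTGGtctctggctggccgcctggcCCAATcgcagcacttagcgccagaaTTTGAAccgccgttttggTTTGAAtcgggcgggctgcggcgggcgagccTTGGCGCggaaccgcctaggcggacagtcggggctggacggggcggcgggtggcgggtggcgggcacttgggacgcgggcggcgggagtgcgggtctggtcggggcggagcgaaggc
Top2a: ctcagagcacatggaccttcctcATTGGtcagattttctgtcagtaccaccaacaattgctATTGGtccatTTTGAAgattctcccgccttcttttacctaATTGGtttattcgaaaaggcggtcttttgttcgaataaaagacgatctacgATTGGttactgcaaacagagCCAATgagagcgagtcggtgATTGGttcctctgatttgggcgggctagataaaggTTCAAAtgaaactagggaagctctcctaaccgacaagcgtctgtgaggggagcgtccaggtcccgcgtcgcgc
Smc2: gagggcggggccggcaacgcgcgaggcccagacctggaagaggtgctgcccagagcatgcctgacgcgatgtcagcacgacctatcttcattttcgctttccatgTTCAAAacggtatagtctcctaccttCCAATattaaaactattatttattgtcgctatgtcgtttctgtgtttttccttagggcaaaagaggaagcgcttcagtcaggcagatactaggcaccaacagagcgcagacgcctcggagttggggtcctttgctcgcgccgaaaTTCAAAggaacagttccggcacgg
Ncapg: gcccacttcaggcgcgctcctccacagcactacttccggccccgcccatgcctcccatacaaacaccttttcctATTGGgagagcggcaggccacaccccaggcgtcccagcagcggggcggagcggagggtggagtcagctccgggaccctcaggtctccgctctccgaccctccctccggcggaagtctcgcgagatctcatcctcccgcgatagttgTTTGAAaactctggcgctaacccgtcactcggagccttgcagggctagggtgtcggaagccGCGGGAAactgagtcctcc
Mcm6: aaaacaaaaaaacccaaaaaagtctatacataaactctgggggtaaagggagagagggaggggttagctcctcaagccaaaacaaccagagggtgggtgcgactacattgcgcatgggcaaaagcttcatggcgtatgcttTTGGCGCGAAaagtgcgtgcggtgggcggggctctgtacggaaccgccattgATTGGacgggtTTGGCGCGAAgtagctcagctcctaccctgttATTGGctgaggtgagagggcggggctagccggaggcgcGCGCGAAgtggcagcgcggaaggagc
Mcm5: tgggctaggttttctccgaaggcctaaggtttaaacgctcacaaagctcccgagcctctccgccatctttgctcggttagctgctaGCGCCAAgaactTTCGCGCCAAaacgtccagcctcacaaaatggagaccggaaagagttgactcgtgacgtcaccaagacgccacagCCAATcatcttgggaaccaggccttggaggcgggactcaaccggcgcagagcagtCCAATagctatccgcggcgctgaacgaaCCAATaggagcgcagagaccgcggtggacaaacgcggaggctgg

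In these windows Mki67 held 3 CCAAT boxes, 2 CHR cores and 1 E2F match, Top2a 6 CCAAT boxes, 2 CHR cores and no E2F match, and Smc2 1 CCAAT box, 2 CHR cores and no E2F match. Ncapg held 1 of each, and Mcm6 and Mcm5 2 and 3 CCAAT boxes with 5 and 3 E2F matches and no CHR core. E2F matches on opposite strands overlap in Mcm6 and Mcm5, and a match to TTGGCGC can overlap a CCAAT box read on the other strand. Of the 38 measured members, 30 had a promoter in the RefSeq table, 22 mitotic and 8 of S phase. Those of Tyms, Nusap1, Mad2l1 and Birc5 held no CCAAT box, CHR core or E2F match. A CCAAT box was present in 18 of the 22 mitotic promoters (81.8%) and in 7 of the 8 S phase promoters (87.5%), against 37.9% of all 27025 promoters. A CHR core was present in 16 of the 22 mitotic promoters (72.7%) and in 1 of the 8 S phase promoters (12.5%, Mcm2), against 18.1% of all. An E2F match was present in 4 of the mitotic promoters (18.2%) and in 6 of the 8 S phase promoters (75%), against 9.7% of all, or 9.3% without matches that overlap a CCAAT box. Letter matches are a description of the sequences and were not set against the measured differences.

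**Figure D1:**
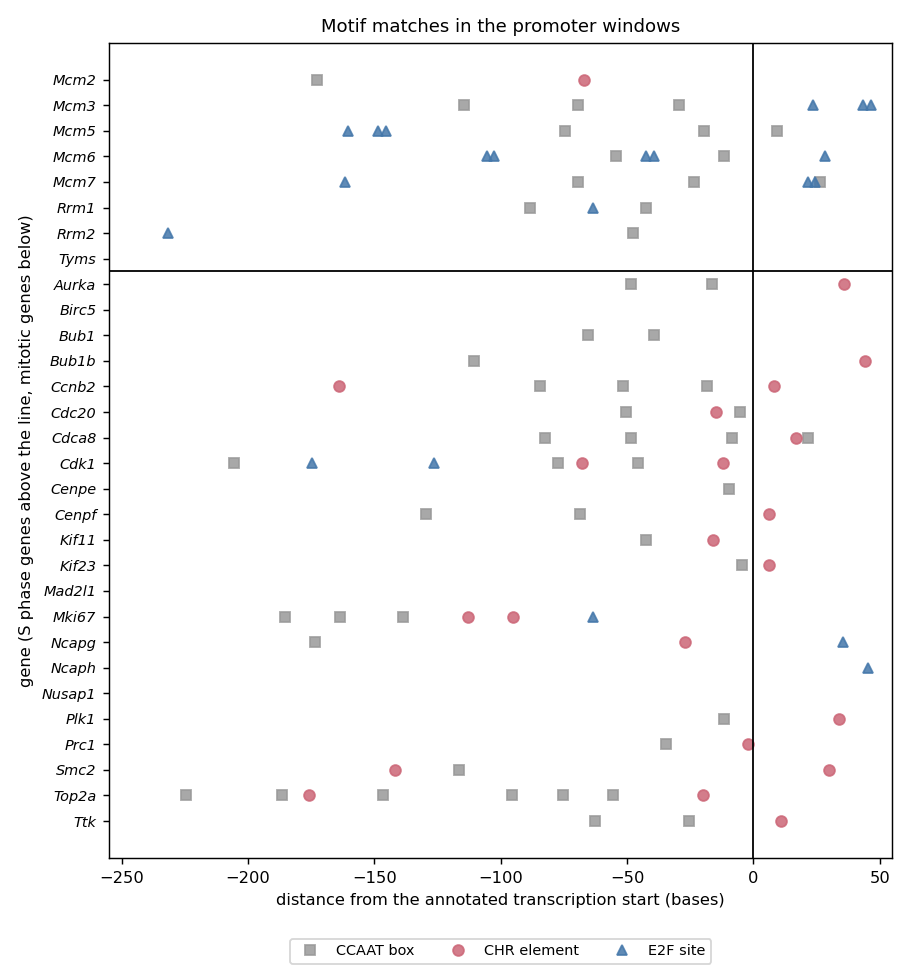
Positions of CCAAT boxes, CHR cores and E2F matches in the promoters of the members, plotted as the distance in bases of each match from the annotated start (0), with 1 row a gene and S phase and mitotic genes apart. CHR cores lie almost only in mitotic promoters, with a median position of -15, and E2F matches mostly in S phase promoters, with a median of -56.5.

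On average, cell cycle genes had higher levels on asthma 1 and asthma 3 than on the 3 control arrays. All 38 members had a positive difference, while 43.7% of all genes tested did. The members moved together across the arrays, as described below, so counts of members are not counts of independent results. The median difference was 0.80 for the mitotic genes, with a range of 0.24 to 1.47, and 0.50 for the S phase genes, with a range of 0.04 to 0.75, against -0.02 over all genes. No member passed an FDR of 0.25 (limma), a threshold that 0.0395% of all genes passed in either direction and 0.0296% passed as higher, and the adjusted p of the members lay between 0.48 and 0.91. With p, unadjusted, under 0.01, 3 members were higher, the condensin genes Smc4, Ncaph and Smc2, and 0 lower, where 0.963% of all genes were higher and 1% lower. With p under 0.05, 26 of the 38 were higher, 19 mitotic and 7 of S phase, and 0 lower, where 4.53% of all genes were higher and 4.78% lower. Smc4, Ncaph and Smc2 are on a gene list that the study chose on these same samples. The members themselves were chosen with earlier results of these data known, so these counts beside the backgrounds are not independent evidence.

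These counts changed when single arrays were left out. Fits with an array left out are less precise, so their counts depend on the lost precision as well as on the array. Without asthma 1 or asthma 3, only the other of these arrays was set against the controls. At p under 0.05, 8 members were higher without control 1, 8 without control 2, 37 without control 3, 17 without asthma 1 and 2 without asthma 3 (backgrounds 4.1%, 3.36%, 5.42%, 5.43% and 1.68%). At p under 0.01 the count was 28 without control 3 (background 1.73%), 3 without asthma 1 (1.29%; Smc2, Mad2l1 and Ccne2, so only Smc2 was shared with the main comparison), and 0 without control 1, control 2 or asthma 3 (0.988%, 0.756% and 0.321%). Of these 5 settings, only that without control 3 had members past an FDR of 0.25, 6 of them, all mitotic (background 0.247%), against 0 without control 1, control 2, asthma 1 or asthma 3 (0.00494%, 0%, 0.0198% and 0%). The direction was steadier: 38 members were higher without control 1, 2 or 3 or asthma 1, and 37 without asthma 3, where Mcm4 had a difference of -0.031 (backgrounds 44.9%, 42.7%, 46%, 44.3% and 46.1%). With all 6 arrays, 36 of 38 were higher (background 55%), 10 at p under 0.05 (background 1.44%) and 0 at p under 0.01 (0.282%) or at the FDR (0.00494%). With limma's array weights over the 6 arrays, 8 members had p under 0.01 (1.69%) and 2 passed the FDR (0.988%).

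Across the arrays, the members shared an order. The mean level of the 28 mitotic genes was 5.86, 5.82 and 6.71 on control 1, 2 and 3, and 6.73 and 7.16 on asthma 1 and asthma 3. Control 3 thus lay next to asthma 1 and well above the other controls. On asthma 2 the mean was 6.46, between the low controls and control 3. The mean of the 10 S phase genes was 6.88, 6.95 and 7.27 on the controls, 7.32 and 7.69 on asthma 1 and 3, and 6.95 on asthma 2, equal to control 2. Asthma 3 held the highest level of the 5 arrays for 38 of 38 members, as it did for 23.9% of all genes. Control 3 lay above controls 1 and 2 for 37 of 38 members, all but Mcm4, as for 39.1% of all genes.

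**Figure D2:**
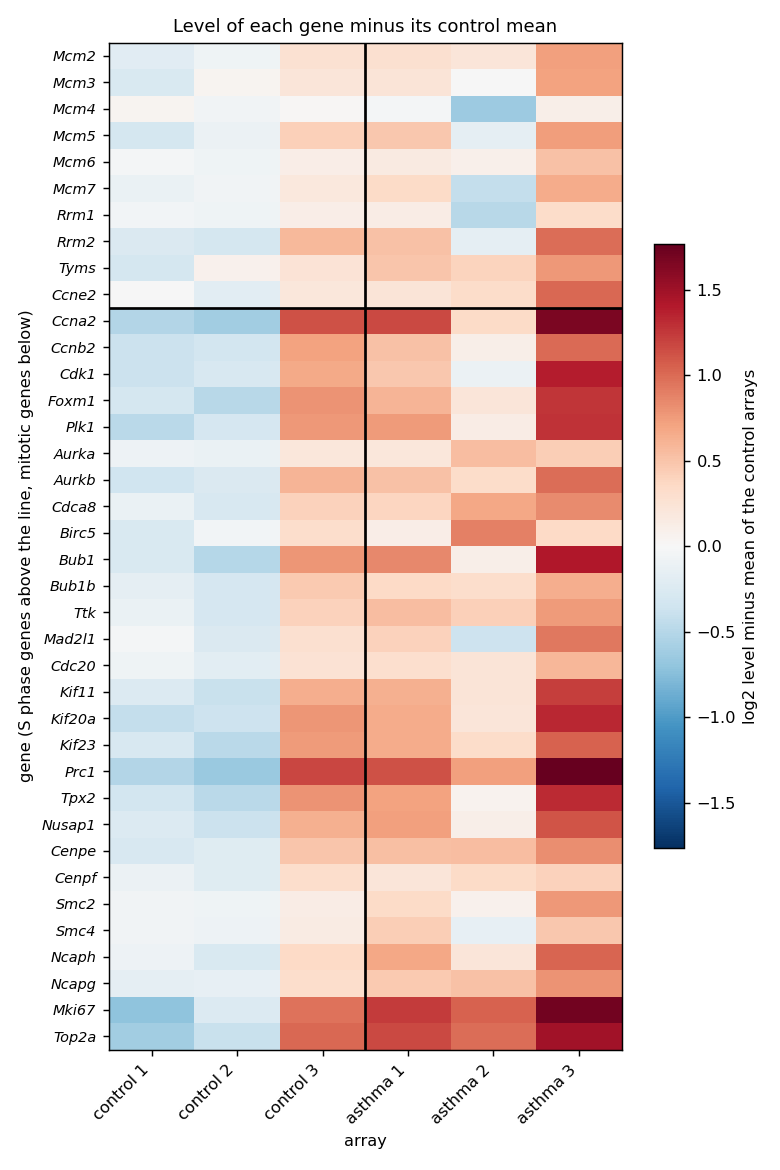
Heat map of the 38 measured genes (rows, S phase genes above and mitotic genes below the line) on the 6 arrays (columns), coloured by the log2 level minus the mean of the 3 control arrays. Control 3, asthma 1 and asthma 3 are higher than control 1 and control 2 over most rows, and asthma 3 is the highest of the 5 arrays without asthma 2 in all 38.

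With control 3 in the group, the groups overlapped for many genes. Both asthma arrays lay above every control for 21 of 38 members (background 11.9%), 13 of 28 mitotic and 8 of 10 S phase genes. Control 3 lay above asthma 1 for 17 members, 15 mitotic and 2 of S phase, as it did for 57% of all genes. The median excess of control 3 over the mean of controls 1 and 2 was 0.92 log2 in the mitotic genes and 0.31 in the S phase genes, with 0.02 over all genes. The mitotic genes therefore had both the larger differences between the groups and the larger spread among controls, with a median control SD of 0.54 against 0.22 for S phase genes and 0.11 for all genes. That the mitotic and the S phase genes differ in their response was not tested.

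The S phase genes include the replicative helicase. MCM2 to MCM7 form the ring that is loaded at origins and unwinds DNA. Of the 6 subunit genes, 5 had asthma 1 and asthma 3 above all controls (background 11.9%). Mcm7 had levels of 7.46, 7.51 and 7.76 on control 1, 2 and 3, of 7.92 and 8.23 on asthma 1 and 3, and of 7.15 on asthma 2, the lowest of all arrays. Its difference was 0.50 (standard error 0.14, limma adjusted p = 0.48), and 0.19 with all 6 arrays. Mcm5 had levels of 6.95, 7.16 and 7.68 on the controls, 7.73 and 8.0 on asthma 1 and 3, and 7.10 on asthma 2, a difference of 0.61 (standard error 0.22). Control 3 was close to asthma 1 there, and without it the difference was 0.82. Mcm2 had levels of 6.71, 6.82 and 7.18 on the controls, 7.19 and 7.63 on asthma 1 and 3, and 7.12 on asthma 2, a difference of 0.50 (standard error 0.19). Mcm6 had 7.15, 7.10 and 7.30 on the controls, 7.34 and 7.71 on asthma 1 and 3, and 7.27 on asthma 2, a difference of 0.34 (standard error 0.13). In both genes asthma 1 was barely above control 3, and asthma 3 carried the gap. Mcm3 had a difference of 0.47 (limma adjusted p = 0.54). Mcm4 had the smallest difference of all members, at 7.83 to 7.95 on the controls and 7.87 and 8.0 on asthma 1 and 3, with a difference of 0.04 and a 95% interval of -0.18 to 0.26. With asthma 2, at 7.26, it turned to -0.19.

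Genes of nucleotide supply were also higher. Tyms encodes thymidylate synthase, which makes the thymidine nucleotide of DNA. Its levels were 6.04, 6.42 and 6.60 on the controls, 6.85 and 7.12 on asthma 1 and 3, and 6.74 on asthma 2. It was the only S phase gene at p under 0.05 with all 6 arrays: all asthma arrays lay above all controls, and the difference was 0.63 (standard error 0.18, limma adjusted p = 0.48) in the main comparison and 0.55 with 6 arrays. Rrm2 encodes the small subunit of ribonucleotide reductase, which is made mainly in S phase. Its levels were 6.38, 6.33 and 7.21 on the controls, 7.16 and 7.62 on asthma 1 and 3, and 6.48 on asthma 2, so that control 3 exceeded asthma 1. The difference was 0.75 (standard error 0.30), the largest of the S phase genes, and 1.03 without control 3. Rrm1, the large subunit, which is present through the cycle, had a difference of 0.22 (limma adjusted p = 0.57) and of -0.012 with all 6 arrays. Ccne2 encodes cyclin E2, the partner of CDK2 at the entry to S phase. It had levels of 5.26, 5.09 and 5.47 on the controls, 5.50 and 6.29 on asthma 1 and 3, and 5.6 on asthma 2, a difference of 0.62 (standard error 0.24) that came mostly from asthma 3.

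Among the mitotic members the 4 condensin subunits had the smallest p-values. Condensin is the ring-shaped complex that compacts chromosomes at mitosis. SMC2 and SMC4 are its core in both condensin I and condensin II, and NCAPH and NCAPG belong to condensin I. All of these genes are also on a gene list that the study chose on these same samples, so their p-values here are not independent evidence. Smc4 had levels of 7.40, 7.37 and 7.61 on control 1, 2 and 3, of 7.90 and 7.94 on asthma 1 and 3, and of 7.32 on asthma 2. Its difference was 0.46 (standard error 0.10, limma adjusted p = 0.48), a fold of 1.37, and asthma 2 lay below every control. Ncaph had 6.30, 6.12 and 6.73 on the controls, 7.06 and 7.41 on asthma 1 and 3, and 6.60 on asthma 2. The difference was 0.85 (standard error 0.20, limma adjusted p = 0.48), a fold of 1.80, the largest of the 4. Smc2 had 6.19, 6.18 and 6.38 on the controls, 6.59 and 7.02 on asthma 1 and 3, and 6.33 on asthma 2, a difference of 0.55 (standard error 0.15, limma adjusted p = 0.48). Ncapg had 4.70, 4.71 and 5.18 on the controls, 5.33 and 5.66 on asthma 1 and 3, and 5.38 on asthma 2, a difference of 0.63 (standard error 0.18, limma adjusted p = 0.48). It was the only condensin gene whose asthma 2 level was also above all controls. It also had the lowest levels of these genes, and low-level genes lay higher on asthma 2 in general. The step of control 3 over the other controls ran from 0.20 in Smc2 to 0.53 in Ncaph, with a median of 0.35. That was below the mitotic median of 0.92, but above the S phase median of 0.31 and the 0.02 over all genes. Of the 3 genes at p under 0.01, none had it without control 1, control 2 or asthma 3 or with all 6 arrays, only Smc2 had it without asthma 1, and only Smc4 and Ncaph had it without control 3.

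Mki67 and Top2a had large differences. Mki67 encodes Ki-67, the protein that coats mitotic chromosomes and is used to count cycling cells, and Top2a the topoisomerase that untangles sister chromatids. Mki67 had levels of 6.03, 6.51 and 7.71 on control 1, 2 and 3, of 7.98 and 8.45 on asthma 1 and 3, and of 7.79 on asthma 2. Top2a had 5.42, 5.64 and 7.06 on the controls, 7.20 and 7.53 on asthma 1 and 3, and 7.02 on asthma 2. Control 3 lay 1.43 and 1.52 above the mean of the other controls in Mki67 and Top2a, and just under asthma 1. The differences were 1.47 (standard error 0.47, limma adjusted p = 0.49) for Mki67, the largest of all members, and 1.32 (standard error 0.48, limma adjusted p = 0.52) for Top2a, which are folds of 2.77 and 2.5. Without control 3 they were 1.94 and 1.83 (limma adjusted p = 0.246 and 0.21). With all 6 arrays they were 1.32 and 1.21, and both had p under 0.05 there.

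The cyclins and their kinase drive entry into mitosis. Ccna2 encodes cyclin A2, which acts in S phase and G2. It had levels of 6.17, 6.07 and 7.80 on the controls, 7.85 and 8.35 on asthma 1 and 3, and 7.02 on asthma 2. Its difference was 1.42 (standard error 0.53, limma adjusted p = 0.52) and 1.98 without control 3. Cdk1, the mitotic kinase itself, had levels of 6.24, 6.34 and 7.29 on the controls, 7.10 and 8.0 on asthma 1 and 3, and 6.52 on asthma 2. Control 3 exceeded asthma 1, and the difference of 0.93 (standard error 0.39, limma adjusted p = 0.54) missed an unadjusted p under 0.05. Ccnb2, which encodes cyclin B2, had a difference of 0.76 (limma adjusted p = 0.56) with the same order of control 3 and asthma 1.

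Regulators of mitosis showed the same overlap. Plk1 encodes Polo-like kinase, needed for centrosome maturation and cytokinesis. Its levels were 6.34, 6.52 and 7.58 on the controls, 7.57 and 8.10 on asthma 1 and 3, and 6.95 on asthma 2, a difference of 1.02 (standard error 0.38, limma adjusted p = 0.52). Cdca8 encodes borealin, a subunit of the chromosomal passenger complex that corrects attachments of chromosomes to the spindle. It had 5.18, 5.02 and 5.70 on the controls, 5.68 and 6.14 on asthma 1 and 3, and 5.99 on asthma 2, a difference of 0.61 (standard error 0.24, limma adjusted p = 0.53). In both genes control 3 lay slightly above asthma 1. The other passenger genes were Aurkb, the kinase of the complex, with a difference of 0.75, and Birc5 (survivin), with 0.24, the smallest of the mitotic genes. Foxm1, the transcription factor of mitotic genes, had a difference of 0.93 (limma adjusted p = 0.55), and Aurka, the spindle pole kinase, one of 0.32 (limma adjusted p = 0.54). None of these 6 genes had both asthma arrays above every control.

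The spindle checkpoint holds cells in mitosis until every chromosome is attached. Bub1, a checkpoint kinase at kinetochores, had levels of 5.10, 4.86 and 6.15 on the controls, 6.22 and 6.78 on asthma 1 and 3, and 5.48 on asthma 2, a difference of 1.13 (standard error 0.39, limma adjusted p = 0.51). Ttk, the kinase that starts checkpoint signaling, had 4.51, 4.32 and 5.03 on the controls, 5.17 and 5.37 on asthma 1 and 3, and 5.05 on asthma 2. Its difference was 0.65 (standard error 0.21, limma adjusted p = 0.50), and all asthma arrays lay above all controls. Mad2l1 encodes MAD2, the inhibitor of CDC20. It had 7.56, 7.33 and 7.87 on the controls, 7.99 and 8.52 on asthma 1 and 3, and 7.22 on asthma 2, the lowest of the 6, and a difference of 0.67 (standard error 0.21, limma adjusted p = 0.48). Cdc20, the activator of the anaphase-promoting complex that MAD2 restrains, had 6.23, 6.11 and 6.56 on the controls, 6.60 and 6.88 on asthma 1 and 3, and 6.53 on asthma 2, a difference of 0.44 (standard error 0.16, limma adjusted p = 0.52). For these 4 genes asthma 1 and asthma 3 were above all controls (background 11.9%). Bub1b, which encodes BUBR1, had a difference of 0.50 (limma adjusted p = 0.57), with control 3 above asthma 1.

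Motor proteins and spindle proteins had differences near 1 log2 unit and a wide spread of controls. Prc1 bundles microtubules of the central spindle. It had levels of 5.17, 5.03 and 6.87 on the controls, 6.81 and 7.46 on asthma 1 and 3, and 6.42 on asthma 2, with a difference of 1.45 (standard error 0.56, limma adjusted p = 0.53), second to Mki67. Control 3 was 1.77 above the mean of the other controls, the largest such step of all members. Kif11 encodes the kinesin that pushes spindle poles apart. It had 6.04, 5.89 and 6.93 on the controls, 6.91 and 7.51 on asthma 1 and 3, and 6.51 on asthma 2, a difference of 0.92 (standard error 0.34, limma adjusted p = 0.52). Kif20a, a kinesin of cytokinesis, had 5.64, 5.69 and 6.83 on the controls, 6.71 and 7.38 on asthma 1 and 3, and 6.27 on asthma 2, a difference of 1.00 (standard error 0.40, limma adjusted p = 0.53). Tpx2 activates Aurora A on the spindle. It had 5.99, 5.85 and 7.11 on the controls, 7.03 and 7.63 on asthma 1 and 3, and 6.37 on asthma 2, a difference of 1.02 (standard error 0.40, limma adjusted p = 0.53). Nusap1, which binds spindle microtubules near chromosomes, had 5.70, 5.56 and 6.57 on the controls, 6.67 and 7.06 on asthma 1 and 3, and 6.06 on asthma 2, a difference of 0.92 (standard error 0.31, limma adjusted p = 0.51). Nusap1 was the only gene of this group with both asthma arrays above control 3. Kif23, a further kinesin of cytokinesis, had a difference of 0.85 (limma adjusted p = 0.54).

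The 2 kinetochore genes had smaller differences. Cenpe encodes the kinesin that moves chromosomes to the metaphase plate. It had levels of 4.43, 4.49 and 5.20 on the controls, 5.24 and 5.53 on asthma 1 and 3, and 5.24 on asthma 2, so that all asthma arrays lay above all controls. Its difference was 0.68 (standard error 0.25, limma adjusted p = 0.52). Cenpf, a large protein of the kinetochore, had a difference of 0.31 (limma adjusted p = 0.60). In the main comparison no member, with or without values given here, had an adjusted p below 0.48 (limma).

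**Figure D3:**
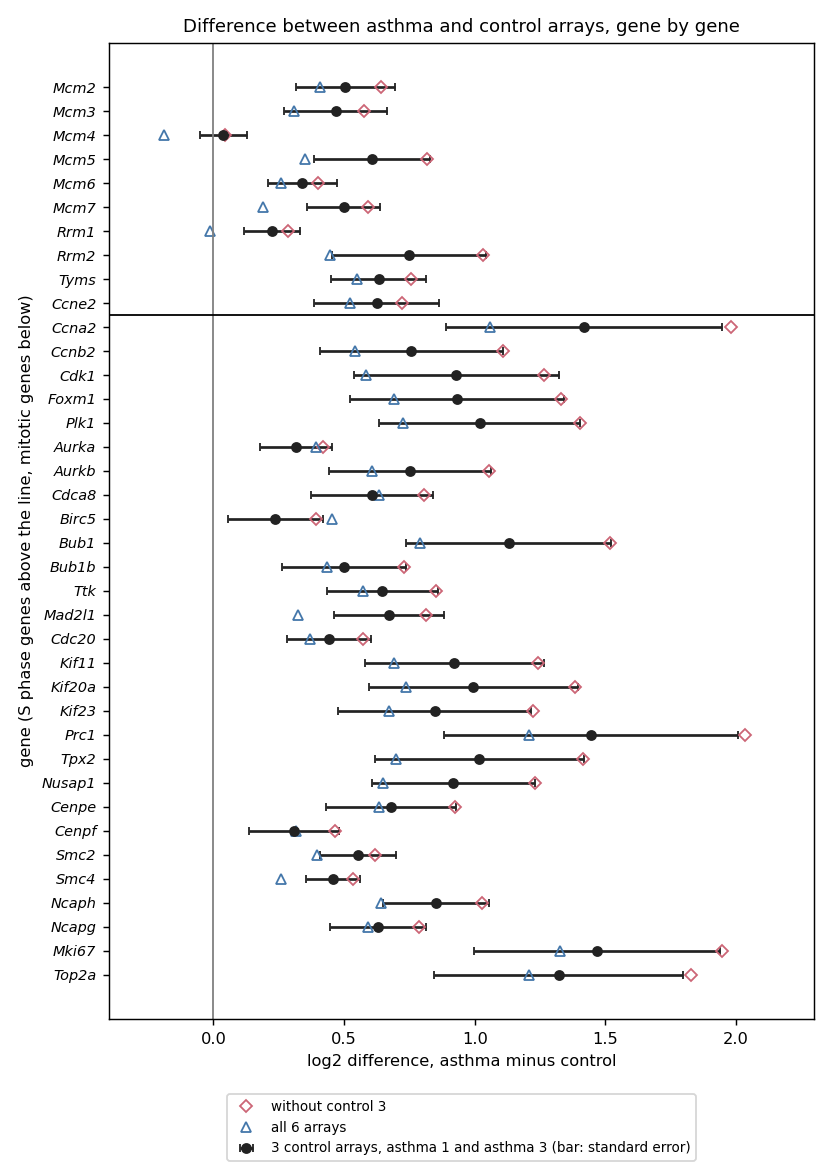
Log2 differences of asthma minus control for the 38 genes (rows): black points with bars give the estimate and its standard error with 3 control arrays, asthma 1 and asthma 3; open diamonds the estimate without control 3; and open triangles that with all 6 arrays. All black points lie to the right of 0, from 0.04 (Mcm4) to 1.47 (Mki67), and most diamonds lie further right.

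The 6 genes that passed an FDR of 0.25 without control 3 were Ccna2 and Top2a (limma adjusted p = 0.21 for both) and Kif23, Prc1, Nusap1 and Mki67 (0.246 for each). The mitotic median was then 1.08 and the S phase median 0.62. Leaving out asthma 3 took them to 0.54 and 0.26, and leaving out asthma 1 to 1.01 and 0.72. Control 3 was labelled as a control, and no label or header sets it apart from control 1 and control 2.

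Asthma 2 was intermediate for mitotic genes. For S phase genes its mean equalled that of control 2, while its median of 7.11 lay between those of control 2 (6.96) and control 3 (7.25). Asthma 2 lay above every control for 8 of 28 mitotic and 2 of 10 S phase genes (background 45.7%). It lay below every control for 2 mitotic and 3 S phase genes (background 37.7%). The 10 members at p under 0.05 with all 6 arrays were 9 mitotic genes and Tyms. All 3 asthma arrays lay above all controls for 6 members, 4 mitotic and 2 of S phase, with a background of 4.16%. Values on asthma 2 were compressed: low-level genes lay higher and high-level genes lower than on the other arrays. The lower quartile was 5.72 against 5.27 to 5.37, and the slope of the deviation on level was -0.168. The backgrounds here are over genes of all levels. Ncapg, Ttk and Cenpe, the 3 mitotic genes under the lower quartile of level, were among the 4 mitotic genes with all asthma arrays above all controls.

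Further cell cycle genes, listed by function, were mostly higher as well, with smaller medians. Of 43 other mitosis genes, 41 were higher (background 43.7%), 20 at p under 0.05 (background 4.53%), and the median difference was 0.55. The smallest p were those of Sgo1, the shugoshin that protects cohesion at centromeres (0.52, limma adjusted p = 0.48), Kif15, a spindle kinesin (0.53), Ndc80, the microtubule coupler of the kinetochore (0.48), and Sgo2a, the second shugoshin (0.81). Pttg1, which encodes securin, went the other way, at 8.50 ± 0.16 (SD, n = 3) on the controls and 8.21 ± 0.02 (SD, n = 2) on asthma 1 and 3 (-0.29, limma adjusted p = 0.53). Of 31 other replication genes, 30 were higher, 9 at p under 0.05, with the same backgrounds and a median of 0.26. They were led by Uhrf1, which keeps DNA methylation through replication (1.10, limma adjusted p = 0.48), Chek1, the replication checkpoint kinase (0.50, limma adjusted p = 0.48), Pole, the leading strand polymerase (0.87), and Dtl, a substrate adaptor of a ubiquitin ligase (0.79). Uhrf1 had levels of 5.80, 5.92 and 6.64 on the controls, 6.99 and 7.44 on asthma 1 and 3, and 6.95 on asthma 2. Sgo1, Ndc80, Sgo2a and Chek1 are on the gene list that the study chose on these same samples, so their p-values are not independent evidence. The counts of mitosis and replication genes higher at p under 0.05 were 1 and 0 without asthma 3 (background 1.68%), 11 and 4 without control 1 (4.1%), 11 and 4 without control 2 (3.36%), 19 and 13 without asthma 1 (5.43%), and 35 and 14 without control 3 (5.42%). In the main comparison no gene of either list passed an FDR of 0.25 (limma adjusted p = 0.48 or higher), whereas without control 3 5 mitosis genes and 1 replication gene did (background 0.247%, lowest limma adjusted p = 0.246), and with array weights 6 and 2 did (0.988%).

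The other subunits of condensin and those of cohesin, taken as 1 list, were not higher as a group. Of 9 genes, 4 were higher (background 43.7%) and the median difference was -0.01. The condensin subunits Ncapg2, Ncapd3 and Ncapd2 were among those higher, so the median does not describe condensin alone. Ncapg2, a subunit of condensin II, had the smallest p of these, with 5.82, 5.82 and 6.01 on the controls, 6.27 and 6.44 on asthma 1 and 3, and 5.99 on asthma 2 (0.47, limma adjusted p = 0.48). Ncapd3, Ncapd2 and the cohesin subunit Rad21 had differences of 0.21, 0.28 and -0.09. A further list held cyclins and CDKs of G1, E2F and pocket proteins and CDK inhibitors, and also Mybl2 (B-Myb), Lin9, Myc, Btg2 and Gas1. It was also mixed: 17 of 27 were higher (background 43.7%), with a median of 0.11. At p under 0.05, 2 were higher and 3 lower (background 4.53% and 4.78%). Cdkn1c, which encodes the CDK inhibitor p57, had levels of 7.42, 7.39 and 7.30 on the controls, 6.99 and 6.73 on asthma 1 and 3, and 7.09 on asthma 2, the clearest lower value (-0.51, limma adjusted p = 0.48). Rbl1 (p107) and E2f8, themselves known E2F targets, had differences of 0.42 and 0.96, and Myc one of -0.34. Ncapg2 and Cdkn1c are also on the gene list that the study chose on these same samples, with the same limit on their p-values.

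Markers of other cell types varied over the same arrays. The mean level of 15 leukocyte markers was 7.33, 8.26 and 8.20 on control 1, 2 and 3, 8.40 and 8.73 on asthma 1 and 3, and 6.91 on asthma 2. For 12 of the 15 both asthma arrays lay above all controls (background 11.9%), 3 were higher at p under 0.05 (4.53%), and asthma 3 was the highest of the 5 arrays for all 15 (23.9%). Control 2 had a high leukocyte mean and a low mitotic mean (5.82), whereas control 3 was high in both. The 13 macrophage and dendritic cell markers had means of 6.55, 7.30 and 7.40 on the controls, 7.57 and 7.83 on asthma 1 and 3, and 6.47 on asthma 2. The 8 B and plasma cell markers had 6.03, 6.95 and 7.03, then 7.09 and 7.31, and 6.15 on asthma 2, and the 11 T and NK cell markers 5.55, 5.89 and 6.02, then 6.03 and 6.20, and 5.74. The 10 smooth muscle markers had 10.99, 9.76 and 10.50 on the controls, 10.94 and 11.29 on asthma 1 and 3, and 10.10 on asthma 2, so that control 1 was among the highest in these and among the lowest in the mitotic genes. The 10 endothelial markers, at 8.52, 9.31 and 8.61 on the controls and 8.49 and 8.57 on asthma 1 and 3, and the 12 epithelial markers, at 7.65, 7.87 and 7.91 and at 7.53 and 7.38, were not higher on the asthma arrays. Their asthma 2 means were 7.12 and 6.92. Means of the 6 vascular smooth muscle and pericyte markers were 9.44, 8.89 and 9.13 on the controls, 9.22 and 9.48 on asthma 1 and 3, and 8.61 on asthma 2. Those of 4 erythroid markers were 5.96, 6.14 and 5.82, then 5.85 and 5.64, and 6.28 on asthma 2. The mean of 11 eosinophil and neutrophil markers was 5.67 ± 0.08 (SD, n = 3) on the controls and 5.85 ± 0.02 (SD, n = 2) on asthma 1 and 3, and that of 10 fibroblast and mesothelium markers 10.19 ± 0.28 and 9.95 ± 0.16. The part of other cell types in the differences of the cell cycle genes was not tested.

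**Figure D4:**
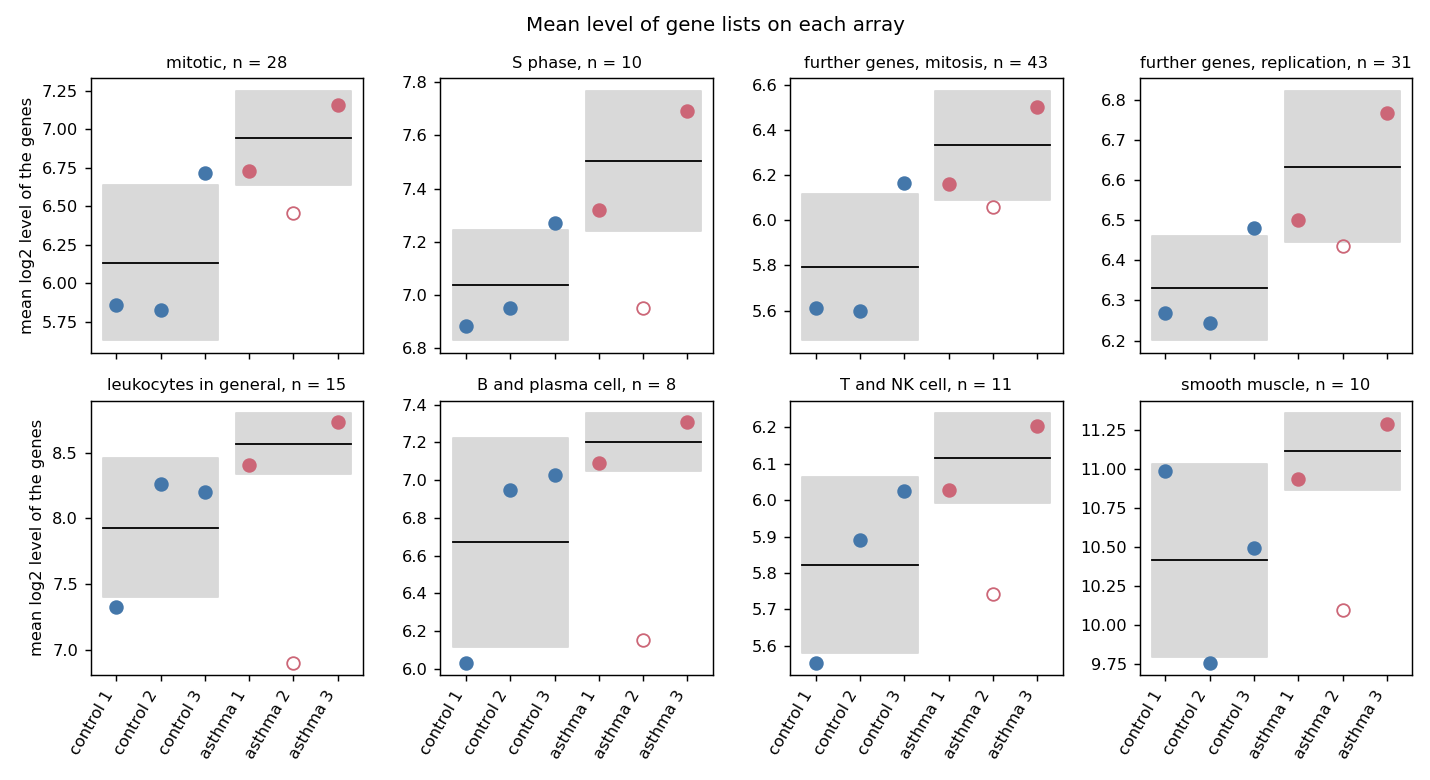
Mean log2 level of the mitotic and S phase genes, of the further mitosis and replication genes, and of markers of leukocytes, B and plasma cells, T and NK cells and smooth muscle on each of the 6 arrays, 1 point an array and 1 panel a list, each with its own vertical scale. Shaded bands give the mean ± SD of the 3 controls and of asthma 1 and asthma 3, and asthma 2 is the open circle. Mitotic genes are low on control 1 and control 2 (5.86 and 5.82) and high on control 3 (6.71), while leukocyte markers are already high on control 2 (8.26).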

How the data were processed

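BSMC RNA was amplified (NuGEN Ovation Pico, per the labels) and hybridised to Affymetrix Mouse Gene 1.0 ST arrays, 1 array a sample. The deposited log2 levels had been made by the authors by running RMA over the whole set of arrays. The submitters' notes name affy and the methods name oligo, while versions and genome build are not stated in the sources used. Of 21225 probe sets, 1 per Entrez gene, 20239 had 1 symbol and were tested, and 986 were not in the annotation used. Arrays have no read depth, and their number limits the precision.

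Levels were used as deposited and compared with lmFit and eBayes of limma 3.58.1 (R 4.3.3, statmod 1.5.0), two-sided, with Benjamini-Hochberg adjustment over all genes. A gene passed at an FDR under 0.25, and counts at p under 0.01 and 0.05 are given beside it, with the share of all genes (the background). SE is limma's standard error. The fit was tested on simulated data. Asthma 2, the asthma array farthest out on the first component, was left out of the main comparison and kept in an alternative with all 6 arrays. Groups come from the sample titles.

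The members and all lists were chosen with earlier results of these data known. Levels on every array are given for members at p under 0.05, the condensin subunits, Mki67, Top2a, Cdk1 and Mcm2, and differences for up to 4 genes with the smallest p of each further list. Uhrf1, Ncapg2 and Cdkn1c were chosen for levels on every array, and Pttg1 named, after their values were seen. Alternatives were array weights, leaving out each array, leaving out low genes, quantile normalization, median centring, a block for the replicate number, an ordinary t statistic and an intensity trend (robust). Promoter windows of 300 bases are from RefSeq (GRCm38.p6), the first window where a gene had several.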

Additional observations from a re-analysis of the deposited data

How the results depend on the processing

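Every member kept a positive difference with quantile normalization and with median centring, which shifts the differences of all genes by the same amount. Leaving out low genes (35 of 38 members remained), an intensity trend with robust variance and an ordinary t statistic cannot change a difference. Those settings bear on p-values only. The exceptions among the other settings were Mcm4, at -0.19 with all 6 arrays, -0.0055 with array weights, -0.031 to 0.11 with 1 array left out (the negative value without asthma 3) and -0.19 with the replicate block over 6 arrays, and Rrm1, at -0.012 with all 6 arrays, with or without the block. The median differences were 0.54 to 1.08 for mitotic genes and 0.26 to 0.72 for S phase genes when 1 array was left out. Over all genes, 8 passed an FDR of 0.25, against 1 with all 6 arrays, 438 with array weights, 0 to 68 with 1 array left out, 1 when low genes were left out and 1 with the ordinary t statistic. Of the members 0 passed, against 2 with array weights (Smc4 and Ncaph, limma adjusted p = 0.212 and 0.201) and 0 to 6 with 1 array left out. At p under 0.01 the count of 3 mitotic genes became 0 with all 6 arrays, 7 with array weights, 0 to 24 with 1 array left out and 0 with the ordinary t statistic. The count of 0 S phase genes became 1 with array weights, 2 with quantile normalization, 2 with median centring and 0 to 4 with 1 array left out. The weight of asthma 2 was 0.0845, against 1.11 to 2.87 for the other arrays.

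The titles number the arrays within each group and do not say that same-numbered arrays are paired. Over all genes, same-numbered arrays deviated from their group means with correlations of -0.107, -0.0363 and 0.0148. The asthma means there include asthma 2, which stood apart, so these correlations cannot decide whether the arrays were paired. With the replicate number as a block, 38 genes passed an FDR of 0.25, and 14 mitotic and 3 S phase genes had p under 0.01 and were higher (background 1.73%), without a partner for control 2. With the block over all 6 arrays, 2 genes passed and 11 mitotic genes had p under 0.01 (background 0.4%). With 5 arrays the precision is limited by their number: the median standard deviation among controls was 0.54 for mitotic and 0.22 for S phase genes.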
